A study of Macaca mulatta with 2 samples.

Results

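Metallothioneins are small cysteine-rich proteins that bind zinc, copper and cadmium. The genes described here are MT1A, MT1B, MT1E, MT1F, MT1G, MT1H, MT1X, MT2A and MT3, together with MTF1, the transcription factor that switches the family on when free zinc rises. They are 10 of the 18841 gene names on the array, and they were chosen by name, with results of the same comparison already known. Their ratios are therefore given as a description, with no test. All 10 names were on the array, on 16 probes. MT1F has 1 probe, which was not well above background in any channel, so 9 genes and 15 probes could be described.

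The study compared primary Sertoli cells, the nurse cells of the seminiferous tubule, from rhesus monkeys of 2 ages. Infant donors were under 3 months old. The other donors were juveniles of 18 to 22 months in which puberty was brought on by GnRH infused at 0.15 µg/min in pulses that lasted 2 min and came 3 h apart, over 4 to 5 weeks. Cultures of both ages had 100 nM testosterone and 5 ng/ml FSH for 24 h, so no culture without hormone was compared, and age and GnRH treatment cannot be told apart. RNA of 1 pubertal and 1 infant culture was hybridised to each of 2 two-colour arrays, labelled as biological replicates. The pubertal RNA was in Cy5 on array 1 and in Cy3 on array 2. Whether a culture pooled several animals is not given in the sources used here.

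In most cells MT1 and MT2 proteins hold a reserve of zinc and take up excess or toxic metal, and their genes are switched on by metals, by glucocorticoids and by oxidative stress. MT3 is known mainly from neurons and answers weakly to metals. MTF1 has zinc fingers that sense the metal and bind metal response elements in the promoters of MT1 and MT2 genes and of the zinc exporter SLC30A1. Cadmium is a classic toxicant of the testis, and metallothioneins are among the proteins that bind it there.

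The probes are human sequences of 60 bases, read here with monkey RNA, and all metallothionein probes lie in 1 cluster of 93.2 kb on human chromosome 16 (build hg17, per the file headers). Cysteine codons recur throughout the family, so the probes of different genes resemble each other, as 5 probes that lie wholly in coding sequence show. In each line the sequence runs 5′ to 3′ on the plus strand of the gene and the capitals mark cysteine codons.
MT1A: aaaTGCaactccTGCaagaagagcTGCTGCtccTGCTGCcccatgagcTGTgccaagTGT
MT1H, second probe: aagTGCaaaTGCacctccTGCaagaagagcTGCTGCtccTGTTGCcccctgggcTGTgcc
MT1H: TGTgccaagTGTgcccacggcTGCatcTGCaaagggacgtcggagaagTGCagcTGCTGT
MT1X: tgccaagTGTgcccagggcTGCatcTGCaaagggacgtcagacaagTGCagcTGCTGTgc
MT3, second probe: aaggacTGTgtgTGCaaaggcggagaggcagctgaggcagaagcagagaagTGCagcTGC
The MT1A probe, at chr16:55230706-55231309, and the second MT1H probe, at chr16:55261957-55262342, each hold 8 cysteine codons and cross an intron. The MT1H probe at chr16:55262337-55262396 holds 7, and the MT1X probe at chr16:55275399-55275458 holds 6. The second MT3 probe, at chr16:55182294-55182353, holds 4, and its middle codes for the acidic insert that sets MT3 apart from MT1 and MT2.

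The probes of MT1B and MT1E end the coding sequence, and their coding ends with the stop codon are shown because both close on the same cysteine pair.
MT1B: tcatcagagaagTGCcgcTGCTGTgcctga
MT1E: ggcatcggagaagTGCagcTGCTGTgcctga
These are parts of the probes at chr16:55244449-55244508 and chr16:55218354-55218413. Of the 99 pairs of probes that belong to different metallothionein genes, 5 share an unbroken run of at least 20 bases, and the longest run, of 27 bases, is between the MT1A probe and the second MT1H probe. The 5 pairs involve 6 probes, of MT1A, MT1E, MT1H and MT1X, and no probe of MT1B, MT1G, MT2A or MT3. Probes were compared only with each other and not with transcripts, so the lack of a run does not show that a probe reads its own gene alone. The array's own annotation lists transcripts of other metallothioneins for 4 probes. Signal from one such gene cannot be told apart from signal of another at these probes, and the match of each human probe to the monkey gene was not tested. The monkey RefSeq gene table (assembly T2T-MMU8v2.0) holds 6 of the 10 names, with MT1A, MT1E, MT1X, MT2A and MT3 on monkey chromosome 20 and MTF1 on chromosome 1.

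Across the series, between 60.9% and 74.8% of the 43376 spots were well above background in a channel, and 19619 genes had a probe that could be used. The number of arrays limits the precision, since the fit had 1 residual degree of freedom. At an adjusted p under 0.05, limma's test called 0 of 19619 genes (0%), and 792 had an unadjusted p under 0.05. Sertoli markers were all measured, 13 of 13. Their summed normalized intensity was 119945 and 99466 in the pubertal and 84768 and 79656 in the infant cultures, on array 1 and array 2. By gene, 7 of the 13 were higher in the pubertal culture on both arrays, 1 was lower on both and 5 turned direction. INHBB, for example, had log2 ratios of -0.08 and 0.95, pubertal over infant, so the Sertoli sums do not stand for each gene. Germ cell markers, measured for 7 of 8 genes, summed to 1946 and 1625 against 911 and 962, and NANOS2 has no probe under that name. Stroma markers, 9 of 9 measured, summed to 28335 and 41065 against 71211 and 61108. Peritubular markers, 4 of 4 measured, summed to 9810 and 18521 against 6196 and 32076. MYH11 and DES were lower in the pubertal culture on both arrays, and ACTA2 was higher on both. CNN1 was higher on array 1 and lower on array 2, so the sums do not give the direction of each gene. Leydig markers, 5 of 6 measured, summed to 99759 and 91846 against 93463 and 62468, with LHCGR not well above background. The log2 ratios of the measured Leydig markers, pubertal over infant on array 1 and array 2, did not share a direction. STAR, the cholesterol carrier of steroid synthesis, had 1.14 and -1.20, and INSL3 had 1.37 and -0.20. The mean of this INSL3 probe was 0.58, while another INSL3 probe had a mean of 0.03. CYP17A1 had -2.12 and -1.45, CYP11A1 had 0.68 and 0.27, and HSD3B2 had -0.43 and 2.46. Macrophage markers, 5 of 5 measured, summed to 1310 and 842 against 686 and 828. Of these genes 1 was higher on both arrays, 1 was lower on both and 3 turned direction, so the sums do not stand for each gene. Endothelial markers, 2 of 3 measured, summed to 293 and 330 against 218 and 211. Spots of 3 Sertoli markers (TF, INHA and INHBB) and of 3 Leydig markers (STAR, CYP11A1 and HSD3B2) were saturated in at least 1 channel, so those sums are limited by the scanner's range. The part of these cell types in the values below was not tested, and fewer cells of a type and less RNA per cell cannot be told apart in cultures measured whole.

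The 8 measured metallothionein genes shared a direction on array 2, but not on array 1, and most of them turned direction between the arrays. On array 2 all 8 were at least 2-fold lower in the pubertal than in the infant culture, while 2.37% of all genes were. On array 1, 7 of the 8 were higher in the pubertal culture. Their median log2 ratio, taken as pubertal over infant throughout, came to 0.66 on array 1 (1.58-fold higher) and to -2.24 on array 2 (4.71-fold lower), beside 0.05 and -0.03 over all genes. The pattern of higher on array 1 and lower on array 2 was shown by 7 of 8, against 31.5% of all genes. None of the 8 was at least 2-fold lower on both arrays (0.352% of all genes) or at least 2-fold higher on both (0.342% of all genes).

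**Figure D1:**
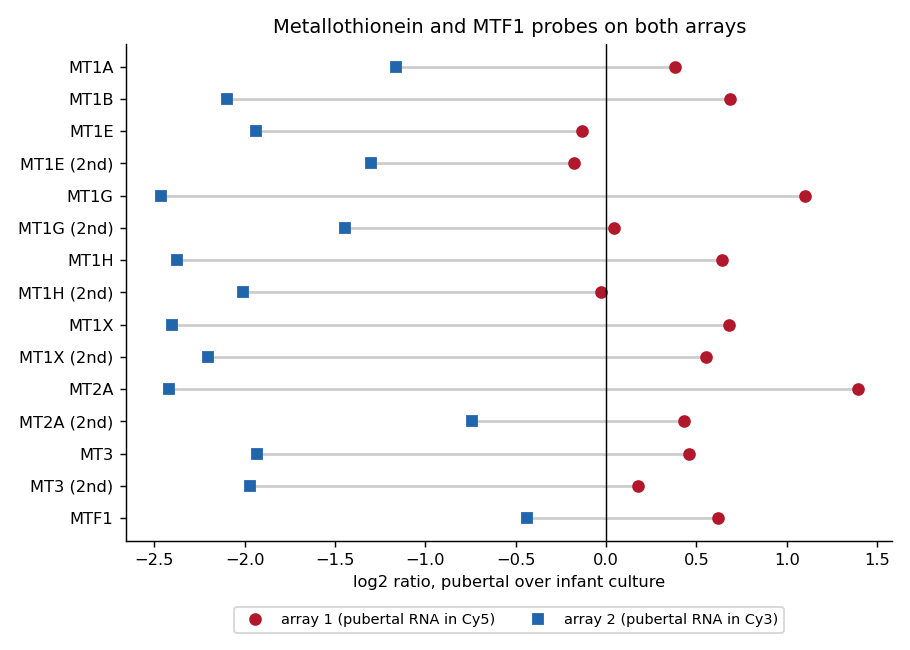
Log2 ratio of the pubertal over the infant culture (horizontal axis) for 14 metallothionein probes and the MTF1 probe (rows), with array 1 as circles and array 2 as squares, and a line joining the 2 arrays. "2nd" marks the probe that was not the brightest of its gene. All 14 metallothionein squares lie left of 0, between -2.46 and -0.74, and the circles lie between -0.18 and 1.39.

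MT2A, the main human isoform in many tissues, differed most between the arrays by the brightest probe of each gene. Its normalized log2 intensity was 14.07 in the pubertal and 12.67 in the infant culture of array 1, and 11.33 in the pubertal and 13.75 in the infant culture of array 2. The pubertal culture of array 1 was the highest of the 4 and that of array 2 the lowest. The level was 2.62-fold higher on array 1 and 5.35-fold lower on array 2, and only 18 of 19619 genes had a lower ratio on array 2. The mean log2 ratio was -0.51 ± 2.69 (SD, n = 2 arrays), so the spread between arrays was far larger than the mean. Averaged over its probes, MT2A had log2 ratios of 0.91 and -1.58, closer together than those of MT1X at 0.62 and -2.30.

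MT1G, an isoform induced by metals, followed MT2A closely. Its levels were 14.36 and 13.26 on array 1 and 11.84 and 14.30 on array 2, in the order pubertal and infant and on the log2 intensity scale. The pubertal culture of array 1 and the infant culture of array 2 lay close together at the top. The ratio was 2.14-fold higher on array 1 and 5.51-fold lower on array 2, where 15 of all genes had a lower one. MT1G and MT2A were the 2 of 8 genes at least 2-fold higher in the pubertal culture on array 1, a size that 4.25% of all genes reached.

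MT1X, another metal-induced isoform, had levels of 13.74 and 13.06 on array 1 and 11.65 and 14.06 on array 2. MT1H had 13.92 and 13.29 on array 1 and 11.77 and 14.14 on array 2. For both genes the infant culture of array 2 was the highest and the pubertal culture of array 2 the lowest. Their ratios on array 2 were 5.29-fold and 5.18-fold lower, and on array 1 1.61-fold and 1.56-fold higher. The probes of MT1H and MT1X share runs of bases, so these values are not independent.

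MT1B, which has no run of that length in common with another gene's probe, had levels of 13.53 and 12.84 on array 1 and 11.49 and 13.59 on array 2. It was 1.61-fold higher in the pubertal culture on array 1 and 4.28-fold lower on array 2. MT1A had levels of 14.44 and 14.05 on array 1 and 13.46 and 14.63 on array 2. Its ratio on array 2, 2.24-fold lower, was the smallest difference of the 8 genes, and 286 genes had a lower one. MT1A and MT1B showed the same order of cultures as MT1X.

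MT1E stood apart on array 1. Its levels were 12.30 and 12.44 on array 1 and 10.52 and 12.45 on array 2, so 3 of the 4 cultures lay within 0.15 of each other and the pubertal culture of array 2 was 1.79 below the nearest. Its log2 ratio was -0.14 on array 1 and -1.94 on array 2. The sign on array 1 turned to 0.99 when each array was centred on its median instead of corrected by loess, a setting that moved the median of all genes to 0.63.

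MT3, the isoform known from neurons, had levels of 14.96 and 14.50 on array 1 and 12.74 and 14.68 on array 2. It was 1.38-fold higher in the pubertal culture on array 1 and 3.82-fold lower on array 2. The spot was saturated in the pubertal channel of array 1, so that ratio may be a lower bound. The second MT3 probe, which was not saturated, had log2 ratios of 0.17 and -1.97. The MT3 probes share no run of 20 bases with a probe of another metallothionein, but they were not compared with the transcripts of the other genes.

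A second probe was measured for 6 of the 8 genes, and all 6 second probes were negative on array 2, by smaller or larger amounts than the first. On array 2 the pubertal signal of the second MT1E probe was not well above background, so its ratio there depends on how background is treated, at -1.30 here and -2.91 from the scanner's signals. The second MT1G probe gave -1.44 on array 2, and those of MT1H and MT1X gave -2.01 and -2.20. The second MT2A probe, which was dim, gave 0.43 on array 1 and -0.74 on array 2, the smallest of the 14 probes. The second MT1G and MT1H probes lay near 0 on array 1, at 0.04 and -0.03. Over the 14 probes the ratio was positive for 11 on array 1 and negative for 14 on array 2, and 13 were at least 2-fold lower there. Probes spotted several times on an array had a median SD of the log2 ratio of 0.088 on array 1 and 0.083 on array 2, which is a technical spread within an array and not one between cultures.

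The levels of the metallothioneins were also read over the 4 cultures. The pubertal culture of array 2 was the lowest of the 4 for 14 of 14 probes, which 24.4% of all genes showed, and it was at least 2-fold below each of the other 3 cultures for 7 of 8 genes, against 0.229% of all genes. MT1A was the gene that did not reach that size. Read by dye, the same ratios were higher in Cy5 than in Cy3 on both arrays for 7 of 8 genes, against 31.5% of all genes. Averaged over the arrays, the log2 ratio of Cy5 over Cy3 ran from 0.56 to 1.91 over the 14 probes. Because dyes were swapped, cultures of different age can also be compared within a dye. In Cy5 the pubertal culture of array 1 differed from the infant culture of array 2 by a median of -0.15 over the 14 probes, with a range from -0.52 to 0.39. In Cy3 the pubertal culture of array 2 differed from the infant culture of array 1 by a median of -1.42, and all 14 were negative, from -2.19 to -0.29. Both dye comparisons cross arrays and rest on scaling the average intensities of the arrays to each other. With 1 culture of each age on each array, the parts that culture, donor, array and the dye response of a probe have in the difference between the arrays cannot be told apart.

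**Figure D2:**
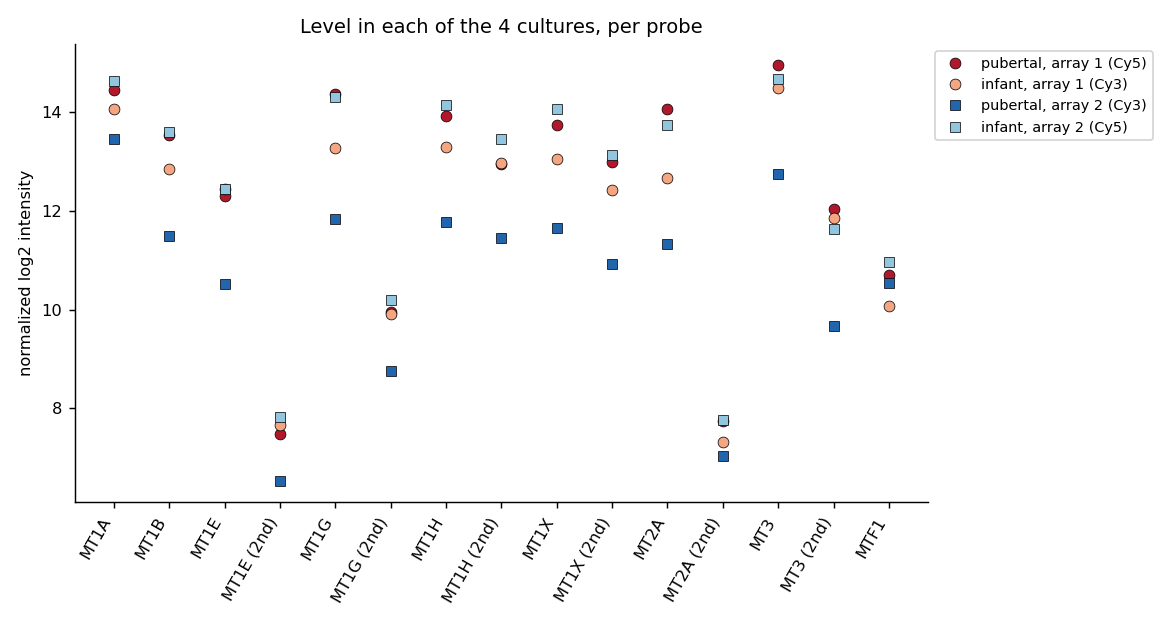
Normalized log2 intensity (vertical axis) of each probe (horizontal axis) in the 4 cultures, circles for array 1 and squares for array 2, dark for pubertal and light for infant. Only cultures within a column can be compared. The dark square, the pubertal culture of array 2, is the lowest in all 14 metallothionein columns and not in that of MTF1.

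MTF1, the metal-sensing regulator, did not share this order. Its levels were 10.69 and 10.08 on array 1 and 10.53 and 10.97 on array 2, and the infant culture of array 1 was the lowest. Its log2 ratio was 0.62 on array 1 and -0.44 on array 2, with a mean of 0.09 ± 0.75 (SD, n = 2 arrays). On array 2, 2739 genes had a lower ratio. The probe lies at chr1:37949731-37949790 in hg17. MTF1 protein activity was not measured.

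The zinc exporters move zinc out of the cytosol. Of 10 exporters on the array, 8 were measured, 0 passed limma's adjusted p in either direction, and 0 had an unadjusted p under 0.05. SLC30A1, the exporter that MTF1 induces, had log2 ratios of -0.10 and 0.08. SLC30A10, an exporter of manganese in the liver and brain, was not well above background. SLC30A2, which loads vesicles, had 1.49 and -0.96, the ratio farthest from 0 in this list on each array. SLC30A3, known from synaptic vesicles, had 0.79 and -0.14, SLC30A4 had 0.36 and -0.52, and SLC30A6 had -0.40 and 0.58. The list's medians were 0.17 and 0.03, near those of all genes, and none of the 8 was 2-fold lower on array 2.

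The zinc importers bring zinc into the cytosol. Of 14 on the array 11 were measured, 0 passed limma's adjusted p, and 1, SLC39A8, had an unadjusted p under 0.05. SLC39A8, which also carries manganese and cadmium, had log2 ratios of 1.91 and 0.58. SLC39A11 had 1.19 and -0.15, SLC39A4, the importer of the gut, had 0.36 and -0.50, and SLC39A13 had 0.62 and 0.16. For SLC39A11 that rests on its brightest probe, with a mean log2 ratio of 0.52, while another probe had a mean of -0.25. The medians were 0.25 and 0.16, and none was 2-fold lower on array 2.

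Copper is the other metal that metallothioneins store. Of 11 copper-handling genes on the array 10 were measured and 0 passed limma's adjusted p or had an unadjusted p under 0.05. CCS, which loads copper into superoxide dismutase, had log2 ratios of -0.79 and -0.10, and COX17, a copper chaperone of the mitochondrion, had -0.77 and -0.01. SCO2 had 0.71 and -0.19, and the copper importer SLC31A1 had 0.42 and 0.22. No gene of this list was 2-fold lower on array 2.

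Glucocorticoids switch on MT1 and MT2 genes. Of 12 genes on the array for the glucocorticoid receptor and its induced genes 11 were measured, and 0 passed limma's adjusted p and 1 had an unadjusted p under 0.05. NR3C1, the receptor, had log2 ratios of 0.55 and 0.01. TSC22D3, a well-known target, had -1.08 and 0.05, KLF9 had -0.67 and 0.55, and PER1, a clock gene that glucocorticoids induce, had 0.45 and 0.65. The mean of this PER1 probe was 0.55, while another PER1 probe had a mean of 0.15. ERRFI1, a feedback inhibitor of the EGF receptor, had -1.16 and -1.37, with an adjusted p of 0.963 by limma. It was the only gene of this list 2-fold lower on array 2. That rests on its brightest probe, with a mean log2 ratio of -1.27, while another ERRFI1 probe had a mean of -0.29.

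By list median, the genes switched on by metal and oxidative stress, other than metallothioneins, came closest to the family on array 2. All 9 on the array were measured, 0 passed limma's adjusted p, and 2 had an unadjusted p under 0.05. Their median log2 ratios were 0.03 and -1.14, and 5 of 9 were at least 2-fold lower on array 2, against 2.37% of all genes. HMOX1, which breaks down heme, had 2.06 and -3.47, SRXN1, which repairs peroxiredoxins, had -0.05 and -2.45, and SLC7A11, the cystine importer, had 0.03 and -2.36. GCLM, a subunit of the enzyme that starts glutathione synthesis, had -0.68 and -1.58, and TXNRD1, thioredoxin reductase, had -1.53 and -1.14. The rest of the list was not 2-fold lower on array 2. GCLC had 0.12 and -0.56, HSPA1A had -0.15 and -0.42, DNAJB1 had 0.49 and -0.28, and HSPH1 had 0.04 and 0.40. The HMOX1 spot was saturated in 1 channel.

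Levels in each culture were compared for these genes too. The infant culture of array 2 was the highest of the 4 for 6 of the 9 stress genes and for 5 of the 8 metallothioneins, against 25.8% of all genes. The pubertal culture of array 2 was the lowest for 3 of the 9 stress genes, near the 24.4% of all genes, and for 8 of the 8 metallothioneins. SRXN1 had 11.75 and 11.80 on array 1 and 11.57 and 14.02 on array 2, so that 3 cultures lay close together and the infant culture of array 2 stood above them. SLC7A11 had 7.36 and 7.33 on array 1 and 7.70 and 10.06 on array 2, in the same shape. HMOX1 had 13.84 and 11.78 on array 1 and 11.85 and 15.32 on array 2, with the infant culture of array 2 highest and the pubertal culture of array 1 next. Whether the order of cultures differs between the stress genes and the metallothioneins was not tested.

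**Figure D3:**
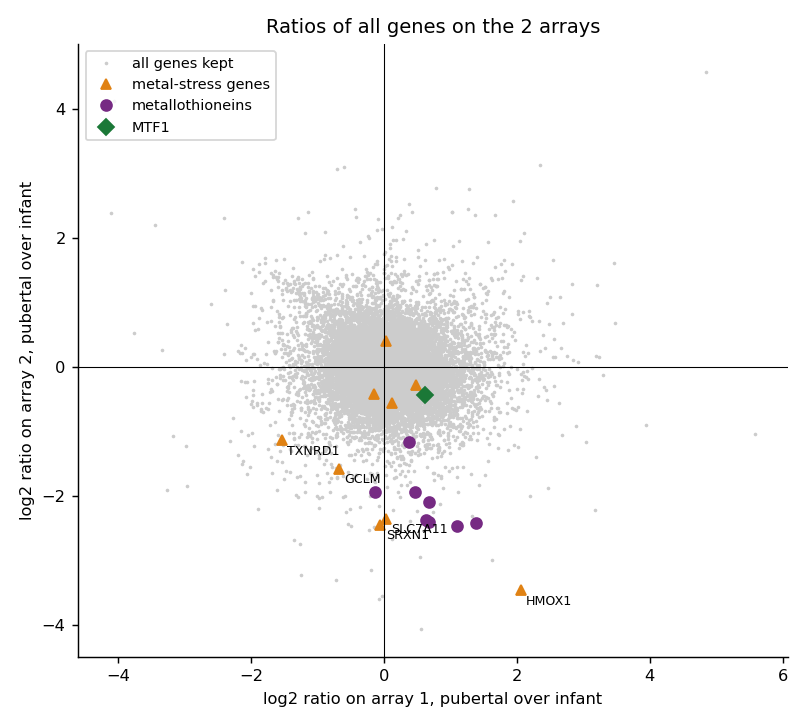
Log2 ratio of pubertal over infant on array 1 (horizontal axis) and array 2 (vertical axis) for all 19619 genes (grey), the metallothioneins (circles), MTF1 (diamond) and the metal-stress genes (triangles). The 8 metallothioneins lie below -1 on array 2, and 7 lie right of 0 on array 1, while HMOX1 lies farther out at 2.06 and -3.47.

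**Figure D4:**
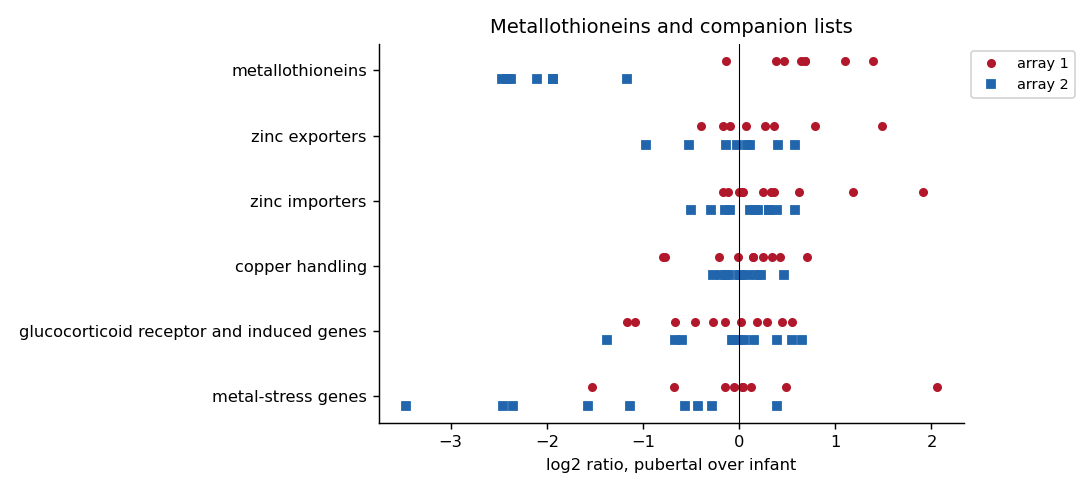
Log2 ratio of pubertal over infant (horizontal axis) for each measured gene of the metallothioneins and the 5 companion lists (rows), with array 1 as circles and array 2 as squares. The squares of the metallothioneins lie between -2.46 and -1.17, apart from their circles, while those of the exporters, importers and copper genes all lie above -1.

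The genes whose ratios were most like those of the family were ranked by distance from the medians of the 9 measured members, 0.64 on array 1 and -2.10 on array 2, over 14212 named genes with the members left out. CST6, a cystatin, was nearest, with 0.73 on array 1 and -2.14 on array 2. MT1L, a metallothionein relative that is a pseudogene in humans, had 0.74 and -2.26, LOC150383 had 0.50 and -2.23, CX3CL1, a membrane-bound chemokine, had 0.84 and -2.13, and ABCB6, a porphyrin transporter, had 0.45 and -1.99. With MTF1 left out of the medians, an alternative chosen after seeing the data, MT1L was nearest and EDNRB, an endothelin receptor, stood in the place of ABCB6. The likeness is over 2 arrays, that is 4 cultures. Within a distance of 1 of the members' medians lay 152 genes, 8 of them members.

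Of the genes beside the cluster, 1 was as low as 2-fold on array 2. Within 500 kb of the cluster on human chromosome 16 there were 14 other measured genes, with a median log2 ratio on array 2 of -0.05 and a range from -1.60 to 0.33. HERPUD1, a gene of the endoplasmic reticulum stress response that was singled out after its values were seen, had 0.16 and -1.60 and was the only one of the 14 at least 2-fold lower on array 2. The order of genes in the monkey genome was not used here.

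**Figure D5:**
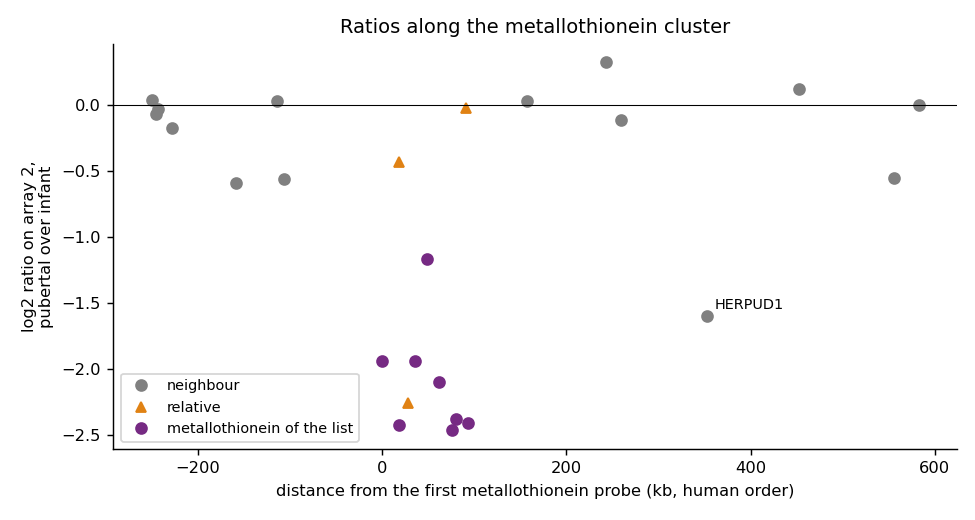
Log2 ratio of pubertal over infant on array 2 (vertical axis) against the distance in kb from the first metallothionein probe in human order (horizontal axis), for the metallothioneins (circles in purple), other probes named for metallothioneins or sharing bases with one (triangles) and neighbouring genes (grey circles). The 8 metallothioneins lie between -2.46 and -1.17 and the neighbours between -1.60 and 0.33.

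The authors' deposited table of log2 ratios lists 13 probes of the 8 metallothioneins. In the authors' deposited table MT2A had 1.28 on array 1 and -2.42 on array 2, MT1G had 0.94 and -2.42, and MT1E had -0.18 and -2.07. The brightest MT3 probe has no value there on array 1, and the second MT3 probe had 0.03 and -1.96. Of the 4848 probes listed, 342 have no value on array 1 and 355 none on array 2. The table's columns have medians of -0.37 and 0.12 over the probes with a value, and their normalization is not stated. Across probes they correlated with the scanner's ratios turned to pubertal over infant at r = 0.9996 on array 1 and 0.9997 on array 2, with slopes of 1.01 and 1.00 and median differences of -0.016 and -0.00044. Scale, centring and direction are thus close to those of the scanner's ratios, and how the probes of the table were selected is not given in the sources used here.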

How the data were processed

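Per the submitters' processing notes, Agilent Feature Extraction 9.5.1.1 read both arrays. Per the file headers, its deposited output holds each spot's intensity in both dyes, a log10 ratio, and other flags (background, saturation, outliers). The authors deposited a second table of log2 ratios with no stated normalization. From the intensities, background was corrected by normexp (offset 50) and each array by loess in limma 3.58.1 (R 4.3.3), with control spots at weight 0 and outlier spots left out. The labelled dyes set the direction, pubertal over infant, of every ratio. Levels per culture are separate-channel log2 values scaled between arrays on average intensity (Aquantile). A probe stayed if both pubertal channels, or both infant channels, were well above background; this left out 15221 of 41000 probes. The brightest kept probe stood for a gene. limma's lmFit and eBayes, with Benjamini-Hochberg adjustment, ran on all 19619 genes and was tested on simulated data. Members and lists were chosen with earlier results of these data known. The genes named are all members, the 5 genes nearest to their median ratios and, in each companion list, the 4 with the largest mean absolute ratio, besides SLC30A1, SLC30A10, NR3C1 and HMOX1. The metal-stress list is named in full. The labels call the arrays biological replicates.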

Additional observations from a re-analysis of the deposited data

How the results depend on the processing

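With 1 culture of each age on each of 2 arrays, age cannot be told apart from the donor or culture. A constant dye response of a probe cancels in the mean of the arrays, but not in the ratio of 1 array or in the difference between arrays. Each ratio already pairs the pubertal and infant cultures of 1 array, so the fit is paired by array and no further replicate block was fitted. The median of the mean log2 ratios of the 8 metallothioneins, without MTF1, was -0.72. It ran from -2.24 to 0.66 when 1 array was left out, so its sign was that of the array that remained. The count of metallothioneins at least 2-fold apart the same way was 0 with both arrays and ran from 2 to 8 on 1 array. The count of metallothioneins higher on array 1 and lower on array 2 stayed within 7 to 8. This held across the background, normalization, filter and probe alternatives and the authors' deposited table. MT1F joined where dim probes were kept, and MT1E where arrays were median-centred. Under median centring the medians became 1.86 and -2.98, or 1.23 and -2.56 relative to all genes, whose medians moved to 0.63 and -0.42. Genes at least 2-fold apart the same way on both arrays numbered 136, but 496 with the scanner's signals, 294 with offset 0, 74 with median centring and from 925 to 1417 on 1 array. limma called 0 genes, but 1 with offset 0, 1 with median centring and 1 with an intensity trend; the cause was not tested. Of 80 alternatives for single members, 80 moved by less than the SD between the 2 arrays, which leaving out 1 of 2 arrays cannot exceed. Both filter alternatives left each member's value as it was. The mean over probes did the same for MT1A, MT1B and MTF1, which have 1 kept probe each. That SD also grows with the difference between the arrays, so the count does not show that the values are stable. Signal over background limits MT1F, MT1E's second probe and SLC30A10.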

Other observations

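Other probes named for metallothioneins lie outside the list. MT4 and MT1M were not well above background in both arrays of either age. MTL5, which encodes the testis protein tesmin and is no metallothionein, had log2 ratios of 0.55 and 0.26. A probe described as MT1L-like without a gene name had 0.14 and -0.02, while the brighter probe named MT1L had 0.74 and -2.26. Another probe named MT1L was not well above background. An unnamed probe described as a mouse metallothionein-I gene transcription activator had 0.10 and 0.05, beside 0.62 and -0.44 for the MTF1 probe. A probe annotated with an MT2A transcript and sharing at least 25 bases with the second, dim MT2A probe had 0.38 and -0.43, which is nearer to that probe's 0.43 and -0.74 than to the brighter MT2A probe.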
